A study of Fukomys damarensis and Heterocephalus glaber and Mus musculus with 160 samples.

Results

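The trimethylated form of lysine 4 of histone H3 (H3K4me3) was compared between liver and heart of the naked mole-rat, Heterocephalus glaber, a long-lived burrowing rodent. The libraries were chosen by their labels: naked mole-rat, H3K4me3, and liver or heart, which gave 9 of the 160 samples of the series and 9 of its 116 samples with a peak list. The study mapped histone marks by chromatin immunoprecipitation followed by sequencing (ChIP-seq), in which an antibody pulls down crosslinked chromatin and the recovered DNA is sequenced. The 5 liver libraries came from the animals NMR30, NMR31, NMR32, NMR34 and NMR35, and the 4 heart libraries from NMR31, NMR32, NMR34 and NMR35. For H3K4me3, 4 animals thus gave both tissues and NMR30 gave liver only. All were wild-type adult males with no treatment. NMR30 was 13 months old, NMR31 was 14, NMR35 was 15, and NMR32 and NMR34 were 17. Tissue was diced and fixed in formaldehyde whole, so each library mixes all cell types of the organ. More cells of a type with a mark, and more of the mark per cell, cannot be told apart in such material. Marker genes of hepatocytes and heart muscle cells could not be placed on the scaffolds, because an annotation of the HetGla_1.0 build was not used here, so the tissue labels were not checked against genes and regions are named by position.

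H3K4me3 is laid down around transcription start sites, above all at promoters in CpG-rich DNA, and its peaks at promoters of broadly used genes recur in most tissues. Acetylation of lysine 27 (H3K27ac) marks promoters and enhancers in use, and monomethylation of lysine 4 (H3K4me1) marks enhancers and the flanks of promoters. A wide H3K4me3 domain is a known feature of many genes that define a cell's identity.

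Before any comparison, the liver library of NMR30 and the heart library of NMR34 stood apart from the rest of their tissue. The liver list of NMR30 held 253457 peaks, against 27591 in NMR31, 48726 in NMR32, 29939 in NMR34 and 42267 in NMR35. The heart lists held 27494 peaks in NMR31, 25868 in NMR32, 46044 in NMR34 and 55315 in NMR35. In the liver list of NMR30, 87.4% of peaks had the smallest width in the list, 285 bases, and in the heart list of NMR34 72.1% had the smallest width, 295 bases. In the other 7 lists that share ran from 3.15% to 39.6%. The median fold enrichment, which is the authors' own value for each peak over background and is used here to describe single regions and to rank peaks within a list, was 4.30 and 4.47 in these 2 lists and 5.25 to 22.3 in the others. Of the peaks of NMR30 liver, 90.3% overlapped a peak in no other of the 9 libraries, and only 2.69% of those lay in liver H3K27ac regions, against 78.1% of its shared peaks. The same values for the heart library of NMR34 were 68.4%, 2.03% and 83.7%. Its list had been called against the input of another animal, NMR32, whereas each other list used the input of its own animal and tissue. Results are therefore given with all 9 libraries and, for the main ones, also with the 7 left when these 2 are taken out.

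No measure of the whole lists differed between the tissues beyond the spread between libraries. The liver minus heart difference in log2 was 0.54 for the number of peaks (p = 0.603, adjusted p = 0.847), 0.06 for the median width (p = 0.905, adjusted p = 0.905), 0.61 for the bases covered (p = 0.111, adjusted p = 0.444) and 0.17 for the 99th percentile of width (p = 0.635, adjusted p = 0.847), each by a two-sided exact permutation test of 5 against 4 libraries, in which the smallest possible p is 0.0159. Bases covered ran from 22.0 to 84.7 Mb in liver and from 17.2 to 26.6 Mb in heart, and the groups overlapped. With both left out the log2 difference was 0.09 for the number of peaks, 0.06 for the median width, 0.19 for the bases covered and 0.17 for the 99th percentile of width (exact permutation p = 0.857, 0.914, 0.4 and 0.514). Without liver NMR30 alone the difference in bases covered was 0.26 (exact permutation p = 0.2). The tissues differed in where their peaks lay and in how wide single regions were, as described next.

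Peaks were joined into 38910 regions, each covered by at least 2 libraries of a tissue. A region was called shared where at least 2 liver and at least 2 heart libraries had a peak in it, and tissue-only where at least 2 libraries of the one tissue and none of the other did, an overlap being at least 50% of the shorter interval. Both tissues shared 20197 regions (51.9%), 10028 (25.8%) were liver-only, 4670 (12%) were heart-only, and 4015 (10.3%) lay in between. Shared regions were wide, with a median of 969 bases, and the tissue-only regions were short, with medians of 195 bases in liver and 197 in heart. Stretches of liver and heart were joined where they overlapped, so region length depends in part on how many libraries have the region. In 9747 regions (25.1%) all 9 libraries had a peak, and there the median width was 1424 bases. Taking out NMR30 liver and NMR34 heart left 37159 regions, of which 20397 were shared, 8428 liver-only and 4686 heart-only, and 16944 had a peak in all 7 libraries. The number of liver-only regions depended on list length more than the number of shared ones: with the 25868 best peaks of each list there were 5267 liver-only, 3669 heart-only and 18617 shared regions. The rule of at least 2 libraries was applied to 5 liver and 4 heart lists, so the class counts also depend on library numbers. Leaving out any single liver library made the numbers equal. Liver-only regions then ran from 7817 to 9829 and heart-only regions from 4799 to 5342.

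**Figure D1:**
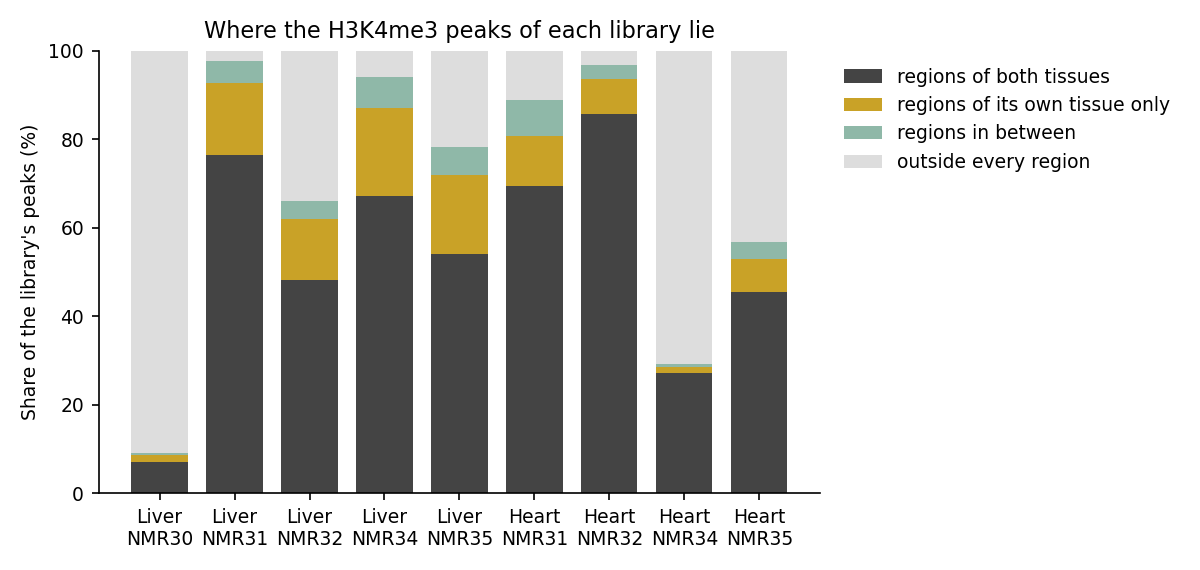
Share of the H3K4me3 peaks of each library (y axis, %) that lie in regions of both tissues, in regions of the library's own tissue only, in regions in between, or outside every region, for 5 liver and 4 heart libraries (x axis). Shared regions held 6.94% of the peaks of NMR30 liver and 27.1% of those of NMR34 heart, and 45.4% to 85.6% of those of the other 7 libraries.

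Most tissue-only regions rested on few libraries. Of the liver-only regions 5537 had a peak in 2 liver libraries and 1580 in all 5, and of the heart-only regions 3341 had a peak in 2 heart libraries and 261 in all 4. The heart-only class leaned on 2 animals: the heart library of NMR31 had a peak in 93.3% of these regions and that of NMR35 in 85.3%, against 42.1% for NMR32 and 13.3% for NMR34. Without the heart library of NMR31 the class held 2708 regions, and without that of NMR35 it held 2504. In liver the shares were more even, from 41.3% for NMR30 to 77.4% for NMR35. Width followed support. The median width of liver-only regions was 132 bases with 2 libraries, 263 with 3, 439 with 4 and 1125 with 5, and that of heart-only regions was 156, 395 and 1325 bases with 2, 3 and 4. A region is the stretch covered by at least 2 libraries, so it can be shorter than any peak in it.

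Part of the tissue-only regions flanked shared ones. Within 2000 bases of a shared region lay 29.3% of liver-only and 40.5% of heart-only regions. Among those found in every library of the tissue the shares were 9.81% of 1580 and 13.0% of 261. In the 7 libraries the shares near a shared region were 30.5% and 41.5%, and in every library 13.4% of 2701 liver-only and 25.7% of 1410 heart-only regions. The tissue-only regions with the most support were thus mostly away from shared ones in both settings.

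The share of peaks with a counterpart in the other tissue rose with their fold. In liver NMR31, 38.1% of the lowest quintile of peaks by fold lay in the regions of heart, and 96.0% of the highest quintile did. The shares for the lowest and highest quintiles were 4.76% and 94.4% in liver NMR32, 27.7% and 96.4% in NMR34, and 11.3% and 94.9% in NMR35. In heart they were 29.2% and 99.7% in NMR31, 51.2% and 99.7% in NMR32, and 9.08% and 97.9% in NMR35. The share was higher in the top than in the bottom quintile in 9 of 9 libraries. In the 2 libraries that stood apart it rose from 0.634% to 25.9% (liver NMR30) and from 1.79% to 85.3% (heart NMR34). Recomputed without those 2, the lowest and highest quintiles of liver NMR31 held 37.8% and 96.0%, and those of heart NMR32 50.3% and 99.7%. Of peaks over 2000 bases, 75.2% to 84.1% in liver and 84.1% to 91.1% in heart were found in the other tissue. Such very wide peaks were found there less often than the highest quintile by fold in 8 of 9 libraries, the exception being liver NMR30 with 75.2% against 25.9%. In each library the median fold of peaks in shared regions was 1.5 to 5.26 times that of peaks in regions of its own tissue only, and the median width 1.64 to 2.65 times.

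**Figure D2:**
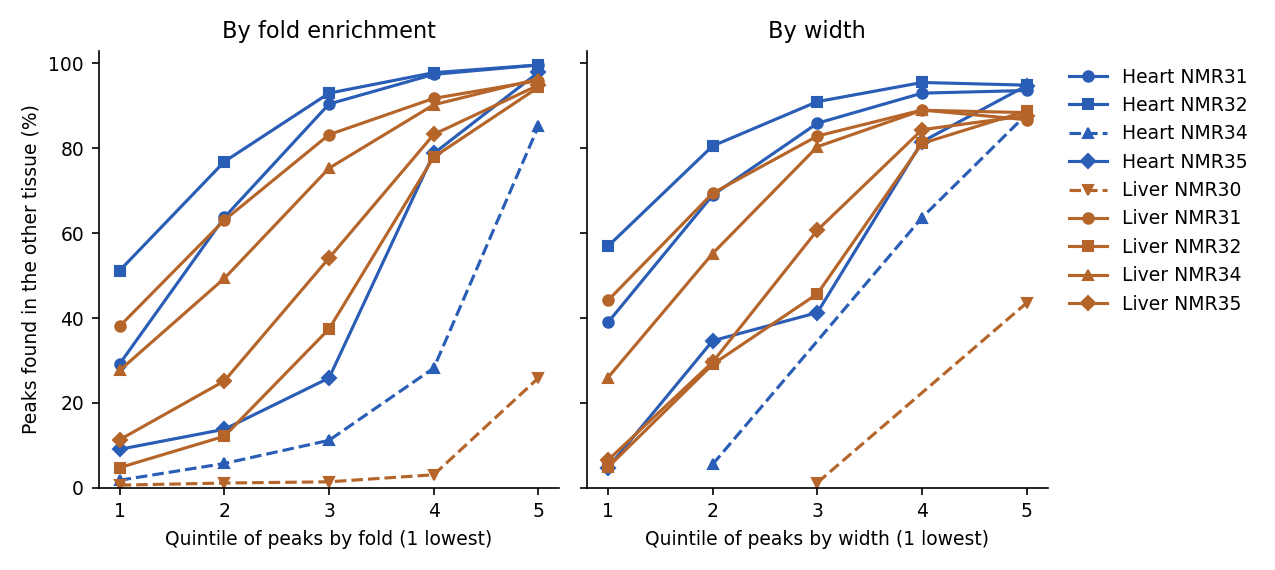
Share of peaks found in the regions of the other tissue (y axis, %) by quintile of the library's own peaks (x axis), ranked by fold enrichment (left) or by width (right), with 1 line per library and dashed lines for liver NMR30 and heart NMR34. Quintiles that hold no peak, because most peaks have the same smallest width, have no point. The share in the highest quintile by fold was 94.4% to 99.7% in the 7 libraries drawn with full lines.

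The named liver-only regions were picked by their median fold rank among the regions with a peak, so their high ranks follow from the choice. By the rule for naming, the leading region was JH166860.1:1487-4746 (HetGla_1.0). It was 2357 bases wide in liver NMR30, 3198 in NMR31, 3182 in NMR32, 3150 in NMR34 and 3187 in NMR35, with folds of 91.9, 220, 173, 322 and 252. No heart library had a peak in it. In every liver library its fold ranked at or above the 99.1 percentile of the regions with a peak in that library. All 5 liver H3K27ac libraries had a peak there, as did all 8 liver libraries of the factors CEBPA, FOXA1, HNF4A and RXRA, and so did 2 of the 3 heart H3K27ac libraries. It starts 1487 bases from the start of its scaffold.

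The other named liver-only regions lacked heart acetylation. JH173672.1:2865919-2866718 was 800, 684, 777, 791 and 713 bases wide in liver NMR30, NMR31, NMR32, NMR34 and NMR35, with folds of 60.3, 140, 155, 260 and 336. It is a narrow region, with liver H3K27ac in 5 of 5 libraries, heart H3K27ac in 0 of 3, no H3K4me1 peak in either tissue, and 1 of the 8 factor libraries. JH168228.1:84235-87416 was 2750, 3097, 3122, 3140 and 3107 bases wide in the same order, with folds of 35.0, 167, 164, 245 and 277. It carried H3K27ac and H3K4me1 in all 5 liver libraries and in none of the 3 heart libraries of each mark, and all 8 factor libraries had a peak in it.

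The heart-only regions with the highest fold ranks were 1801 to 3946 bases wide in the heart libraries, the third being the widest in each. JH171263.1:2134786-2137298 was 2485 bases wide in heart NMR31, 2188 in NMR32, 2353 in NMR34 and 2467 in NMR35, with folds of 88.2, 38.4, 17.7 and 41.4. Heart H3K27ac covered it in 3 of 3 libraries and liver H3K27ac in 0 of 5. JH171561.1:2244018-2246535 had widths of 2518, 2442, 1801 and 2506 bases and folds of 93.6, 22.8, 15.1 and 33.9, again with heart H3K27ac in 3 of 3 libraries and liver H3K27ac in 0 of 5. JH168168.1:2186037-2189982 had widths of 3946, 3711, 2883 and 3827 bases and folds of 76.6, 25.7, 15.9 and 35.2. This last region carried no liver H3K4me3, but 2 of 5 liver H3K27ac and 5 of 5 liver H3K4me1 libraries had a peak in it. Ranks were taken among the regions with a peak in a library, not among all its peaks. In heart NMR34 the folds of the 3 regions ranked between the 93.0 and 96.9 percentiles, and in NMR35 between 90.8 and 96.0. They ranked lower in NMR31, between 85.4 and 92.0, and spread from 72.5 to 93.2 in NMR32.

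A mark read with another antibody, H3K27ac, followed the tissue in which H3K4me3 was found. A H3K27ac peak lay in 57.7% ± 3.62 (SD, n = 5) of liver-only regions in liver libraries and in 14.0% ± 0.902 (SD, n = 3) in heart libraries. Across libraries the range was 54.5% to 62.8% in liver and 13.3% to 15.0% in heart, with no overlap. In heart-only regions the order was the other way, with 11.7% ± 2.76 (SD, n = 5) in liver and 53.5% ± 4.41 (SD, n = 3) in heart. Shared regions carried H3K27ac about as often in either tissue, 81.1% ± 5.05 (SD, n = 5) in liver and 82.5% ± 5.71 (SD, n = 3) in heart. The liver minus heart difference was 43.6 percentage points at liver-only regions and -41.8 at heart-only regions (two-sided exact permutation p = 0.0357 for each, the smallest that 5 against 3 libraries allow, and 0.0536 adjusted over 6 tests). At shared regions it was -1.34 points (exact permutation p = 0.75). None of the 6 tests passed 0.05 after adjustment, and 4 of them had the smallest p the design allows. In the 7-library classes the differences were 50.2, -44.2 and -1.23 points. Compared within the 2 prefixes of the library names, do and vl, they were 42.8, -42.8 and -3.46 points.

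H3K4me1 was found more often in liver lists than in heart lists in every class. At liver-only regions 43.7% ± 5.39 (SD, n = 5) had a H3K4me1 peak in liver and 11.1% ± 5.78 (SD, n = 3) in heart, and at shared regions 49.1% ± 7.20 and 21.4% ± 8.41. At heart-only regions the liver value was also the higher, 23.9% ± 4.32 against 14.9% ± 7.43, with a difference of 9.05 points (exact permutation p = 0.107, adjusted p = 0.129) and ranges that overlapped. The heart H3K4me1 libraries came from NMR30, NMR31 and NMR32, and the heart H3K27ac libraries from NMR31, NMR32 and NMR35. At shared regions the 3 heart H3K4me1 libraries spread from 13.7% in NMR32 to 30.4% in NMR30. The gap between the tissues was thus present at shared regions, at 27.6 points, and heart H3K4me1 was found at 14.9% of heart-only against 11.1% of liver-only regions. In the 7-library classes the liver minus heart differences were 35.5 points at liver-only, 9.44 at heart-only and 27.2 at shared regions.

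**Figure D3:**
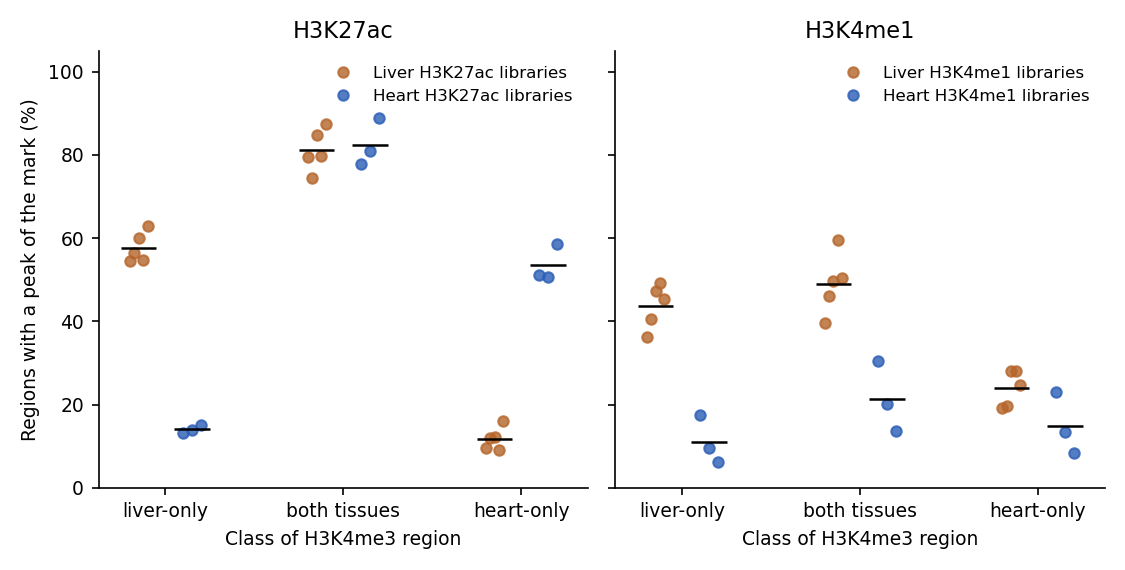
Share of H3K4me3 regions with a peak of H3K27ac (left) or H3K4me1 (right) (y axis, %) in liver-only, shared and heart-only regions (x axis), with 1 point for each of 5 liver and 3 heart libraries of the mark and a black line at the mean. H3K27ac points of the 2 tissues do not overlap in the tissue-only classes and overlap in shared regions.

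Acetylation rose with the number of H3K4me3 libraries that had the region. In liver-only regions, liver H3K27ac was at 42.1% ± 3.78 with 2 libraries, 59.0% ± 5.71 with 3, 78.4% ± 3.86 with 4 and 93.9% ± 1.65 with 5 (SD, n = 5). Heart H3K27ac stayed between 13.2% and 15.7% at each step. In heart-only regions, heart H3K27ac was at 46.6% ± 4.45, 65.6% ± 4.84 and 93.2% ± 2.55 (SD, n = 3) with 2, 3 and 4 libraries, and liver H3K27ac was between 11.4% and 12.6%. Region width rose along the same steps, as given above, and its part in the overlap with acetylation was not tested. H3K4me1 moved little along them, from 40.8% to 50.2% in liver at liver-only regions and from 15.4% to 13.4% in heart at heart-only regions. Without the 2 libraries, regions with a peak in every remaining library of the tissue carried H3K27ac of that tissue in 88.3% ± 2.68 (liver-only, 2701 regions) and 72.8% ± 4.33 (heart-only, 1410 regions). In both tissues the class of regions found in every library was thus larger than with all 9 libraries, where it held 1580 liver-only and 261 heart-only regions, and less often acetylated. Fewer libraries had to have a region when both were left out.

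**Figure D4:**
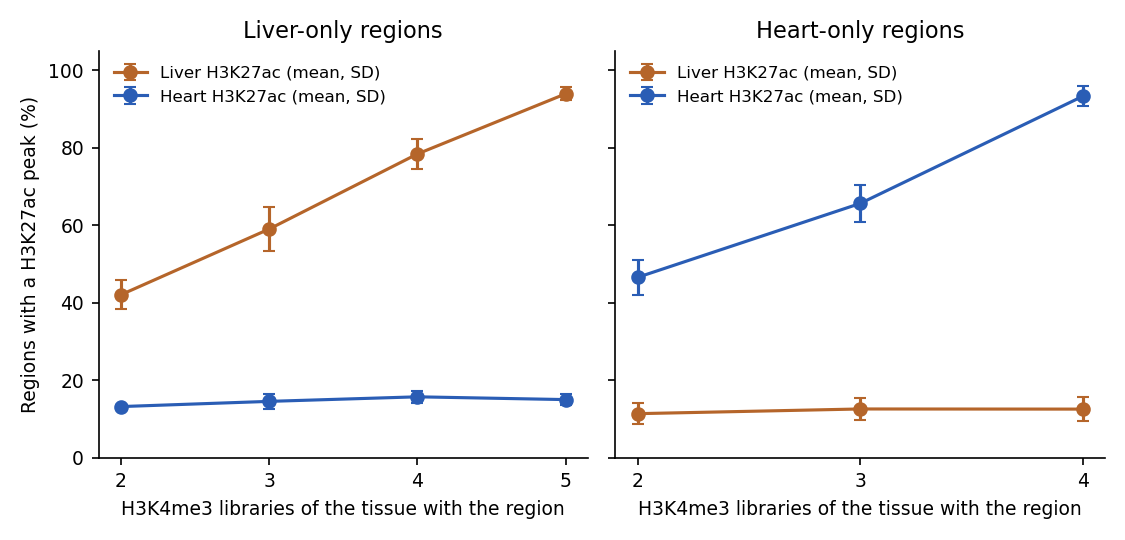
Mean share of regions with a H3K27ac peak (y axis, %; bars are SD over 5 liver or 3 heart H3K27ac libraries) against the number of H3K4me3 libraries of the tissue that have the region (x axis), for liver-only (left) and heart-only (right) regions. The line of the own tissue climbs from 42.1% to 93.9% and from 46.6% to 93.2%, and the line of the other tissue stays between 11.4% and 15.7%.

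Liver transcription factors were found at liver-only more often than at heart-only regions. CEBPA, FOXA1, HNF4A and RXRA are DNA-binding proteins that hepatocytes use, and RXRA pairs with nuclear receptors. Each had a liver library from NMR30 and from NMR35, so these 8 libraries stand for 2 animals and no test was made. A CEBPA peak lay in 17.8% of liver-only and 5.40% of heart-only regions in NMR30 and in 14.0% and 3.83% in NMR35. The shares for FOXA1 were 6.21% and 2.81% in NMR30 and 8.20% and 1.84% in NMR35. For HNF4A they were 3.15% and 1.71% in NMR30 and 10.8% and 3.45% in NMR35. For RXRA they were 6.68% and 1.39%, and 15.5% and 3.47%. The liver-only share was the higher in 8 of 8 libraries, and the same held without the 2 H3K4me3 libraries, for example 17.6% against 3.59% for RXRA in NMR35.

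Shared regions held the factors too, and the order of the classes depended on the factor and the animal. RXRA in NMR35 lay in 31.9% of shared regions, above its 15.5% at liver-only regions. FOXA1 lay in 6.46% of shared regions in NMR35, below its 8.20% at liver-only regions, and in 7.49% in NMR30, above its 6.21%. The classes differ in width, and regions found in every library of a tissue were closer in width. There CEBPA in NMR30 lay in 38.0% of 1580 liver-only, 11.1% of 261 heart-only and 34.3% of 9747 shared regions. FOXA1 in NMR35 lay in 21.1%, 5.75% and 9.31%, and RXRA in NMR35 in 35.7%, 10.7% and 45.4%. In NMR30, FOXA1 lay in 18.7%, 9.96% and 10.7%, and RXRA in 19.6%, 5.36% and 18.0%. CEBPA in NMR35 lay in 31.0%, 7.28% and 25.7%. HNF4A lay in 10.9%, 7.28% and 7.13% in NMR30 and in 28.9%, 11.1% and 23.2% in NMR35. Among these regions CEBPA, FOXA1 and HNF4A thus had a higher share at liver-only than at shared regions in both animals. RXRA had the lower share there in NMR35, and in NMR30 the 95% Wilson intervals of its shares overlapped (17.7% to 21.7% and 17.2% to 18.8%, counting error only).

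Over the 9747 regions with a peak in all 9 libraries, liver libraries resembled each other most. Spearman's correlation of width averaged 0.914 over the 10 liver pairs, 0.818 over the 6 heart pairs and 0.755 over the 20 pairs of different tissues. For fold the averages were 0.762, 0.590 and 0.539. These are correlations across regions, the pairs share libraries, and they are given as a description. Single pairs of different tissues reached 0.881 for width and 0.667 for fold, above the lowest heart pair (0.689 and 0.473), so the ranges overlapped. When pairs with either of the 2 libraries were left out, over the same regions, the averages for width were 0.955, 0.934 and 0.828, and for fold 0.792, 0.627 and 0.575. Width then separated the tissues with no overlap, the lowest pair of one tissue being 0.917 and the highest pair of different tissues 0.881.

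At single regions, width differed between the tissues in a minority. Width was taken as the bases under peaks in the region, on a log2 scale after subtraction of each library's median over the tested regions, and tested with limma across all 9747 regions. Of these, 582 were wider in liver (5.97%) and 474 wider in heart (4.86%) at a Benjamini-Hochberg adjusted p below 0.05. Regions wider in liver had a median log2 difference of 0.76 and median widths of 2023 bases in liver and 960 in heart. Regions wider in heart had a median log2 difference, liver minus heart, of -0.82 and median widths of 900 and 1615 bases. The difference exceeded 1 on the log2 scale in 175 and 169 of them. Among the 8691 regions not called, the median absolute difference was 0.15.

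Those counts moved with the libraries and the scale. Without liver NMR30 and heart NMR34, 1424 of 16944 regions were wider in liver (8.4%) and 1172 wider in heart (6.92%). Of the 582 regions, 497 kept the call in that setting and 579 kept the direction, and of the 474 regions 422 and 472. Without subtraction of library medians the median of all regions moved from -0.02 to 0.21 on the log2 scale, and 250 regions were wider in liver against 56 in heart. The excess of liver over heart calls thus depended on that step. Leaving out heart NMR34 alone gave 1158 and 728 calls among 13866 tested regions, leaving out heart NMR35 gave 468 and 265, and leaving out heart NMR32 gave 435 and 307. In plain bases, every liver library was above every heart library in 592 regions (6.07%) and below in 96 (0.985%), and after subtraction of medians in 772 (7.92%) and 701 (7.19%). Before subtraction, heart NMR34 had a median width of 624 bases over the regions tested with all 9 libraries. The other heart libraries had 1046 to 1315 bases there and the liver libraries 963 to 1310. The part of heart NMR34 in the counts without subtraction was not tested.

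Width and fold moved together across the tested regions. Fold was ranked in each library among the regions tested for width, not among all peaks of its list. Regions wider in liver ranked, by median, between the 66.2 and 73.4 percentiles of fold in the 5 liver libraries. In the 4 heart libraries they ranked between the 34.4 and 37.5 percentiles. Regions wider in heart ranked between 13.3 and 17.6 in liver and between 45.8 and 57.3 in heart. A peak is drawn as far as its signal passes the caller's threshold, so these are not independent measures. In the 7-library setting the ranks of regions wider in liver were 63.2 to 65.9 in liver and 33.1 to 34.9 in heart, and those of regions wider in heart 20.0 to 21.5 and 49.8 to 52.2. Among the tested regions, those wider in heart thus ranked low in liver libraries and near the middle in heart libraries. Those wider in liver ranked above the middle in liver libraries and below it in heart libraries.

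The regions called wider in a tissue also differed in acetylated bases. This comparison was added after the width calls were seen. H3K27ac peaks covered on average 85.1% ± 3.54 (SD, n = 5) of the bases of regions wider in liver in liver libraries and 48.8% ± 4.29 (SD, n = 3) in heart libraries. In regions wider in heart the coverage was 33.4% ± 6.56 in liver and 81.2% ± 3.0 in heart, and in regions not called 69.8% ± 6.53 and 72.8% ± 5.08. The ranges of H3K27ac coverage over libraries did not overlap in the called groups. The differences were 36.3, -47.8 and -3.03 percentage points (two-sided exact permutation p = 0.0357, 0.0357 and 0.536, and 0.0536, 0.0536 and 0.536 adjusted over 6 tests), so none passed 0.05. For regions called with the 7 H3K4me3 libraries the differences were 38.7, -42.4 and -2.59 points, over the same 5 liver and 3 heart H3K27ac libraries. The mean H3K4me1 coverage was higher in liver than in heart in all 3 groups, by 11.3, 21.7 and 15.5 points (exact permutation p = 0.0714, 0.0357 and 0.0357, and 0.0857, 0.0536 and 0.0536 adjusted). Its ranges overlapped at regions wider in liver, with liver libraries from 21.2% and heart libraries up to 24.9%.

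Factor peaks were commoner at regions wider in liver than at those wider in heart in 8 of 8 factor libraries. RXRA in NMR35 lay in 63.9% of regions wider in liver, 29.1% of those wider in heart and 45.1% of those not called. CEBPA in NMR30 lay in 52.7%, 24.7% and 33.6%. HNF4A in NMR35 lay in 45.0%, 21.9% and 21.8%, so that regions wider in heart did not lie below those not called. FOXA1 in NMR35 lay in 23.7%, 5.91% and 8.53%. The regions wider in liver were also longer, with a median length of 2214 bases against 1786 for those wider in heart and 1373 for those not called, and the part of length in these shares was not tested. In the 7-library setting the shares of RXRA in NMR35 were 52.7%, 21.8% and 34.7%.

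The named regions are the largest differences in each direction, well above the medians of the called regions, and were picked among calls in which the tissues did not overlap. JH166727.1:79462-84491 was 4196 bases wide in liver NMR30, 4494 in NMR31, 4701 in NMR32, 4985 in NMR34 and 4876 in NMR35, and 1142, 572, 308 and 793 bases wide in heart NMR31, NMR32, NMR34 and NMR35. The tissues were far apart, with a log2 difference of 2.64 ± 0.155 (SE; limma adjusted p = 1.23e-06), and the strongest point was in the same place, since the mean summit lay 3860 bases from the region's start in liver and 3878 in heart. All 8 factor libraries had a peak in it. JH171970.1:1164009-1168262 was 3891, 4210, 4253, 4254 and 4229 bases wide in liver and 1263, 430, 346 and 592 in heart, a log2 difference of 2.62 ± 0.203 (SE; limma adjusted p = 1.15e-05). JH167500.1:3282842-3286031 was 1279, 2786, 2599, 3190 and 2833 bases wide in liver and 865, 173, 295 and 317 in heart, a log2 difference of 2.58 ± 0.343 (SE; limma adjusted p = 0.00043). In this last region all heart folds were low, from 4.09 to 5.14, and the liver library of NMR30 was the narrowest of its tissue. Without NMR30 liver and NMR34 heart the 3 log2 differences were 2.45, 2.51 and 2.86.

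The named regions wider in heart differed by up to 3.03 on the log2 scale. JH204768.1:1445130-1448284 was 3155, 2751, 1906 and 3141 bases wide in heart NMR31, NMR32, NMR34 and NMR35, and 577, 231, 147, 1200 and 362 in liver NMR30, NMR31, NMR32, NMR34 and NMR35. The log2 difference, liver minus heart, was -3.03 ± 0.472 (SE; limma adjusted p = 0.00131). All 3 heart H3K27ac libraries and none of the 5 liver ones had a peak in it, whereas H3K4me1 was found in 5 of 5 liver and 0 of 3 heart libraries, and no factor library had a peak. JH172935.1:143551-149316 was 5766, 5182, 3520 and 5411 bases wide in heart and 285, 926, 686, 900 and 1312 in liver, a log2 difference of -2.97 ± 0.286 (SE; limma adjusted p = 4.19e-05). It carried H3K27ac in all 3 heart and all 5 liver libraries, and 4 factor libraries had a peak in it. JH167267.1:138382-140923 was 2542, 2273, 1662 and 2447 bases wide in heart and 570, 295, 291, 368 and 341 in liver, a log2 difference of -2.84 ± 0.236 (SE; limma adjusted p = 1.66e-05). It had H3K27ac in 3 of 3 heart and 4 of 5 liver libraries and no factor peak, so that only the first of the 3 lacked liver acetylation. The heart library of NMR34 was the narrowest of its tissue in each. With NMR30 liver and NMR34 heart left out the log2 differences were -3.22, -2.66 and -3.02.

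The 3 widest regions did not pass the width test. JH168664.1:374609-383423 was 6579, 7242, 7303, 7584 and 8268 bases wide in liver and 8787, 8520, 6749 and 8357 in heart, and the tissues overlapped (limma adjusted p = 0.136). JH173719.1:281342-289092 was 6612 to 7751 bases wide in liver and 4966 to 6706 in heart (limma adjusted p = 0.829). JH174050.1:146842-153776 was 6523 to 6935 bases wide in liver, and 6698, 6451, 1818 and 6398 in heart NMR31, NMR32, NMR34 and NMR35 (limma adjusted p = 0.427). Its short heart value came from NMR34 alone. In the 7-library setting the adjusted p were 0.0736, 0.46 and 0.818 (limma), and the first of the 3 then overlapped 2 tested regions, of which the value is for the one with the larger overlap. All 5 liver and all 3 heart H3K27ac libraries and all 8 factor libraries had a peak in each of these 3 regions.

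**Figure D5:**
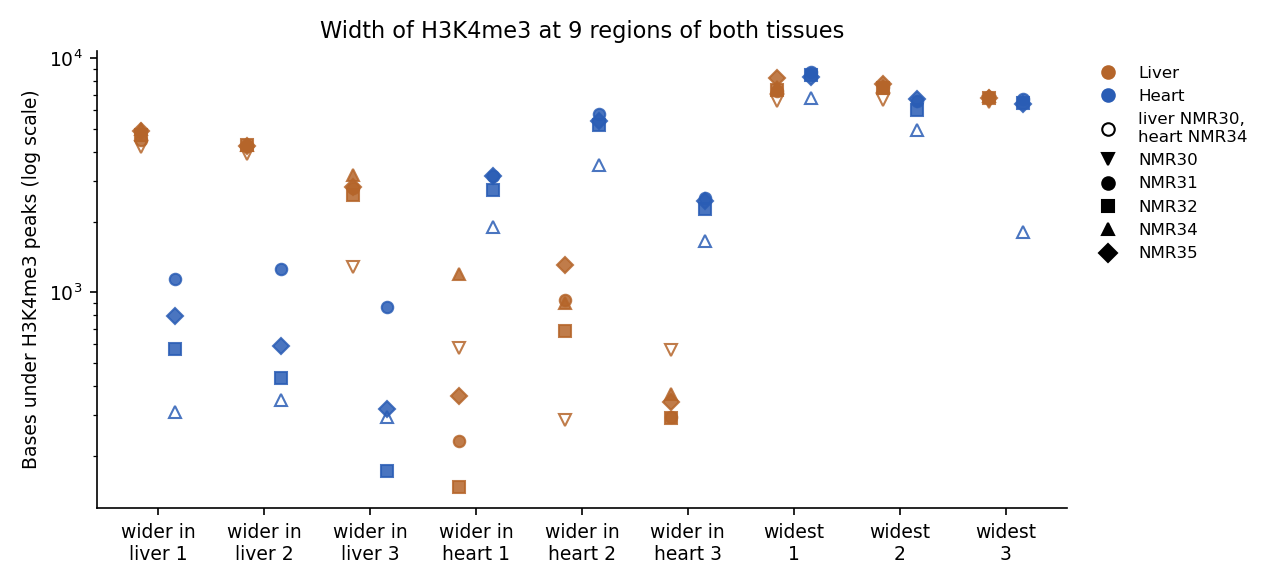
Bases under H3K4me3 peaks (y axis, log scale) in each library at the 3 named regions wider in liver, the 3 wider in heart and the 3 widest regions (x axis), in brown for 5 liver and blue for 4 heart libraries, with 1 symbol per animal and open symbols for liver NMR30 and heart NMR34. The first 6 regions were chosen among those with no overlap of the tissues. In the last region the open heart point at 1818 lies far below the rest.

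The position of the highest point, the summit, differed between the tissues in few regions. For each pair of libraries the median distance between their summits over the tested regions was taken. Its mean was 48.1 bases over liver pairs (range 28 to 77) and 65.2 over heart pairs (35 to 91). Over pairs of different tissues it was 60.5 (32 to 99). Pairs of different tissues lay 6.00 bases farther apart than pairs of one tissue (one-sided exact permutation p = 0.0794). Without the 2 libraries the separation was 8.61 bases (one-sided exact permutation p = 0.0286), and without liver NMR30 alone it was 7.38 bases (one-sided exact permutation p = 0.0286). It did not pass with any other single library left out: without heart NMR34 alone it was 3.65 bases (one-sided exact permutation p = 0.321), and over the other 7 the p ran from 0.114 to 0.2. With the animal as block it was 7.06 bases (one-sided exact permutation p = 0.125, the smallest that 4 pairs allow for this measure), so that setting could not pass. Over the same 9747 regions and the pairs of the 7 libraries, heart pairs, at 47.0 bases, lay no closer than pairs of different tissues, at 44.8, and liver pairs lay at 31.3. In the limma test of summit position 64 of 9747 regions (0.657%) had shifted, and 213 of 16944 (1.26%) without the 2 libraries. Of the 64 regions 57 kept the call in that setting. The median shift was 448 bases, against 43.3 over all tested regions. Liver and heart summits did not overlap in any of the 64, while 440 of all regions (4.51%) had no overlap. Of the 64 regions, 23 had also been called for width.

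Of the 3 named shifts, 2 kept their call without the libraries that stood apart. In JH170564.1:1107334-1111954 the summit lay 580, 564, 773, 831 and 571 bases from the region's start in liver NMR30, NMR31, NMR32, NMR34 and NMR35, and 4244, 4232, 4123 and 4242 bases in heart NMR31, NMR32, NMR34 and NMR35. The shift was -3546 ± 65.3 bases (SE; limma adjusted p = 4.3e-08), and the region was 3556 to 4621 bases wide in liver and 1722 to 2733 in heart. Liver peaks thus spanned nearly the whole region with their highest point at its start, and heart peaks had theirs at its far end. In JH166228.1:1385115-1391962 the summit lay 6196, 6393, 5404, 6086 and 6639 bases from the start in liver and 3156, 2509, 3376 and 2486 in heart, a shift of 3262 ± 280 bases (SE; limma adjusted p = 0.000602). Heart peaks were the higher by rank there, taken among the regions with a peak in a library and not among all its peaks. Heart folds lay at or above the 78.6 percentile in all 4 heart libraries. Liver folds lay at or below the 39.9 percentile in all 5 liver libraries.

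The largest shift depended on how regions were joined. In JH167266.1:874656-881550 the summit lay 1664 to 1708 bases from the start in the 5 liver libraries and 5660 to 6583 in the 4 heart libraries, a shift of -4385 ± 188 bases (SE; limma adjusted p = 6.69e-06). Without the 2 libraries the stretch fell into 2 regions. In the longer one, from 876656 to 881523, the liver minus heart difference was 499.5 ± 168 bases, of the opposite sign (limma adjusted p = 0.363), and the width difference was -2.55 on the log2 scale, wider in heart (limma adjusted p = 0.000746).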

How the data were processed

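The authors deposited 1 peak list per library on the HetGla_1.0 build, per the file names. MACS2 is named in the submitters' processing notes with no version. For the aligner, no name is given in the sources used here. Fold enrichment, a ratio, and the −log10 q-value are columns the authors deposited, and no −log10 q was below 1.30. Read depth is unknown, because the lists carry no read numbers. Regions, overlaps and exact permutation tests used SciPy 1.17.1, NumPy 2.4.6 and pandas 2.3.3 under Python 3.11.15, figures Matplotlib 3.10.9, and width and summit tests limma 3.58.1 in R 4.3.3, with Benjamini-Hochberg adjustment over all tested regions and a threshold of 0.05. A peak that touched several regions was counted once. In simulated data on the 9747 regions the width test recovered 27 of 100 regions changed by 0.5 on the log2 scale and 88 of 100 changed by 1, with 5 false calls. The simulated noise was normal, independent, and of the same SD in all 9 libraries of a region. The real libraries were less even. Heart NMR34 correlated in width with the other hearts at 0.689 to 0.718, against 0.917 to 0.953 among those. The simulation thus does not give the error rate of the real data.

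Replicates are different animals, per the labels. Libraries of 1 animal are paired across tissues for NMR31, NMR32, NMR34 and NMR35 by those labels; the correlations of their width deviations were 0.08, 0.0069, -0.13 and 0.20. No 2 of the 9 lists were alike enough to be 1 library (Jaccard index 0.0690 to 0.749 over 36 pairs). The sample names carry 2 series prefixes, do and vl, which the labels do not explain. The named regions were, by rule, the 3 liver-only and 3 heart-only regions found in every library of their tissue with the highest median fold percentile, taken among the regions with a peak in that library; the 3 widest; the 3 with the largest width difference in each direction; and the 3 largest summit shifts, all among calls with no overlap of the tissues. The libraries, regions and lists were chosen with earlier results of these data known. Positions count from 1. Sequences and genes were not analysed here.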

Additional observations from a re-analysis of the deposited data

Results flagged for a closer look

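In groups of 4 or 5 libraries, 52 sets of values were searched for a library with a wide gap to the others, which chance alone gives in about 1 set of 20. There were 7 such sets. The liver library of NMR30 was far above the other 4 in its number of peaks, 253457, and in the bases covered, 84.7 Mb. It was also the narrowest liver library at JH171970.1:1164009-1168262, with 3891 bases, and at JH173719.1:281342-289092, with 6612 bases, and the widest at JH167267.1:138382-140923, with 570 bases. The heart library of NMR34 was far below the others in width at JH174050.1:146842-153776, with 1818 bases, and its summit in JH170564.1:1107334-1111954 lay at 4123 bases from the start, below the other 3. All 7 values came from these 2 libraries.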

How the results depend on the processing

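The directions of the H3K27ac differences at liver-only and heart-only regions, and of the H3K4me1 difference at liver-only and shared regions, held under every alternative run. Without liver NMR30 and heart NMR34, the regions called for width were 1424 wider in liver and 1172 in heart, the shifted summits 213 and the summit separation 8.61 bases. Without subtraction of library medians the width calls were 250 and 56. Regions counted only with 3 libraries of a tissue were 6636 liver-only and 2456 heart-only, and liver-only regions numbered 5267 with equal list lengths. An alternative added after the data were seen used only the vl libraries, from liver NMR30 and NMR31 and heart NMR31, NMR32 and NMR34. It gave 3467 liver-only and 4306 heart-only regions, the reverse of the order with all libraries. A liver-only region there needed a peak in both liver lists, and a heart-only region in 2 of the 3 heart lists. Both lists that stood apart were among these libraries. The part of the unequal library numbers in this reversal was not tested. With a −log10 q of at least 4 the log2 difference in median width was -0.0247.

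With the animal as a replicate block, the difference in peak number was -0.0226 on the log2 scale, since NMR30 drops out of the 4 pairs, and no other difference changed direction. The pairing gave 525 regions wider in liver and 447 wider in heart, against 582 and 474 without it, and 63 shifted summits against 64. The smallest two-sided exact p is 0.25 with 3 pairs and 0.125 with 4. For the one-sided test of summit separation it is also 0.125 with 4 pairs, since exchanging all labels leaves the separation the same.

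Leaving out each library in turn gave -0.0226 to 0.78 for the peak number, -0.27 to 0.38 for the median width, 0.26 (without liver NMR30) to 0.75 for the bases covered and -0.0643 to 0.41 for the 99th percentile of width (log2), 2.54 to 10.6 bases for the summit separation (one-sided exact permutation p = 0.0286 to 0.321), and -3.69 to 1.84 points for H3K27ac at shared regions. Heart-only regions ran from 2504 to 5342, regions wider in liver from 435 to 1158, wider in heart from 265 to 728, and shifted summits from 54 to 131.

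Read depth is unknown, and a region without a peak was not detected at that library's depth. The difference in peak number with equal list lengths is 0 by construction and was not tested.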
